A study of Mus musculus with 2 samples.

Results

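The interferon regulatory factors (IRFs) examined here were *Irf1*, *Irf2*, *Irf3*, *Irf4*, *Irf5*, *Irf7*, *Irf8* and *Irf9*, chosen by name as a gene family, and all 8 were read among the 20655 genes that had a value on the gene microarray. RAW264.7 is an established mouse macrophage line, which the labels trace to ascites of a tumor induced by Abelson murine leukemia virus in an adult male BALB/c mouse. Cultures of this line received vehicle control or IR-61, a near-infrared cyanine dye that accumulates in mitochondria, both in DMEM with fetal bovine serum, and were harvested at 24 h. The dose, taken from the legend of the array figure of the study, was 10 μM. RNA of 1 culture per condition was hybridized to 1 single-colour Agilent array, so a line without replicate cultures stands for each condition, the conditions could not be tested against each other, and no value below has an error between cultures. No agent other than the vehicle or IR-61 is named for these cultures.

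IRFs share an amino-terminal DNA-binding domain that reads GAAA repeats in the promoters of interferon genes and of interferon-stimulated genes. *Irf3*, *Irf5* and *Irf7* encode latent factors that are activated by phosphorylation when Toll-like receptors or nucleic acid sensors signal. *Irf9* encodes a factor of the response to type I interferon, whereas *Irf1*, *Irf4* and *Irf8* are controlled mainly through the amount of their protein, and IRF2 competes with IRF1 for the same sites. In macrophages, IRF5 and IRF1 are known for inflammatory gene expression, IRF8 for lineage identity and IRF4 for alternative activation.

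The values are intensities of single spots, which the authors deposited after background subtraction within each array and without scaling between the arrays. A difference is given as IR-61 minus vehicle on the log2 scale, after the 75th percentile of all probes (10.30 with vehicle, 10.79 with IR-61) was subtracted. Each of the 8 genes had 1 named probe except *Irf1*, which had 2, and every one of these 9 probes was printed as 1 spot. The error given with a difference is an expected SD, built from how far the spots of other probes, printed 10 times each, lay apart. It covers noise within an array and no difference between cultures. Of all genes, 16885 were measured, that is, well above background on both arrays, and their median difference was 0.10 with an SD across genes of 0.44. A difference below 0 was found for 38.8% of them, so 0 was not the middle of the distribution. The array reads RNA of the whole culture, so fewer cells of a kind and less RNA per cell cannot be told apart.

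The family did not move as a block. *Irf5* was lower by 2-fold with IR-61, *Irf1* was lower by 1.45-fold, *Irf9* was higher by 1.38-fold, and *Irf2*, *Irf3* and *Irf8* each differed by 1.09-fold from the vehicle level. *Irf4* and *Irf7* were read only just above background, and their differences were smaller than the spread between spots. Of the 8 genes 1 was lower by 2-fold or more, where 1.39% of all measured genes were, and 0 were higher by 2-fold or more, where 2.0% of all measured genes were. At a limit of 1.5-fold, *Irf5* was still the 1 gene of the family that was lower, against 5.67% of all measured genes, and 0 were higher, against 9.82%. The median over the 8 genes was −0.12, with 5 genes below 0 and 3 above, and 6 of the 8 lay below the median of all genes. Of all measured genes 38.8% were below 0.

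**Figure D1:**
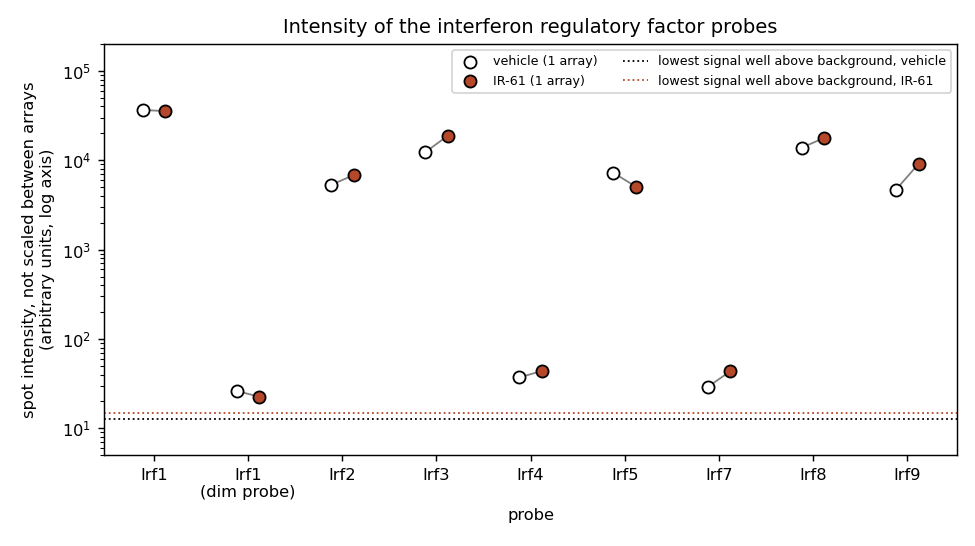
Intensity of each probe of the 8 genes on the vehicle array (white) and the IR-61 array (red), 1 spot per point, on a log axis before any scaling between arrays, with dotted lines at the lowest signal well above background on each array. The second probe of *Irf1* and the probes of *Irf4* and *Irf7* sit close to the dotted lines, and *Irf5* and *Irf1* are the genes whose bright probe did not gain intensity on the brighter IR-61 array.

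*Irf5*, which relays Toll-like receptor signals through MyD88 to inflammatory cytokine genes, had an intensity of 7244 with vehicle and 5045 with IR-61. Scaled to the 75th percentile of the arrays, its log2 level was 2.52 with vehicle and 1.51 with IR-61, a difference of −1.01 ± 0.094. This is a 2.01-fold lower signal, and it passed the 2-fold limit by less than the spread between spots. Ordered from the lowest difference, *Irf5* took rank 232 of 16885, and 1.37% of the measured genes were as low or lower. *Irf5* was among the genes that the study displayed from these same arrays, so its lower signal is not independent evidence. Without scaling between the arrays the difference was −0.52, and with normexp background correction it was −0.88, both short of the 2-fold limit.

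*Irf1*, an activator induced by interferon-γ and by NF-κB, was read at 36616 with vehicle and 35416 with IR-61 by its brighter probe. The scaled log2 level was 4.86 with vehicle and 4.32 with IR-61, and the difference of −0.54 ± 0.094 equals a 1.45-fold lower signal. It was 5.68 times the expected SD, and 6.66% of the measured genes were as low or lower. The second probe, which is listed for another transcript of the gene, read 26.2 with vehicle and 22.6 with IR-61, only 2.05 and 1.505 times the lowest signal well above background. Its difference of −0.70 ± 0.46 pointed the same way and did not differ from that of the brighter probe beyond the spread between spots. *Irf2*, which encodes the competitor of IRF1, was read at 5293 with vehicle and 6813 with IR-61. Its difference was −0.12 ± 0.094, little more than the expected SD, and its direction turned without scaling, where it was 0.36.

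*Irf8*, a partner of PU.1 in the macrophage lineage, had an intensity of 13857 with vehicle and 17835 with IR-61 and a difference of −0.12 ± 0.094, turning to 0.36 without scaling. *Irf3*, the constitutive factor that TBK1 activates, had an intensity of 12268 with vehicle and 18797 with IR-61. The scaled difference of *Irf3* was 0.13 ± 0.094, and 47.0% of the measured genes were as high or higher. *Irf3* thus stayed near the middle of the distribution of all genes, which has its median at 0.10. *Irf2* and *Irf8* lay 0.22 below that median, and for each of them 27.3% of the measured genes were as low or lower.

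*Irf9* had the highest difference of the family. It had an intensity of 4701 with vehicle and 9127 with IR-61, and its scaled log2 level was 1.90 and 2.36. The difference of 0.47 ± 0.094 equals a 1.38-fold higher signal and was 4.97 times the expected SD. Among all measured genes this was no extreme value, since 15.4% were as high or higher. *Irf9* was above the median of all genes by 0.37 and stayed above it under every setting that was run, by 0.36 to 0.48.

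*Irf4*, which encodes a factor that restrains MyD88 signaling and takes part in alternative activation, gave 37.1 with vehicle and 43.9 with IR-61. These intensities were 2.90 and 2.93 times the lowest signal well above background, and the difference of −0.25 ± 0.46 was smaller than its expected SD. *Irf7*, the interferon-induced factor that amplifies type I interferon, gave 29.0 with vehicle and 43.6 with IR-61, 2.27 and 2.90 times that lowest signal. Its difference of 0.10 ± 0.46 was also smaller than the expected SD. For these genes a difference was not detectable at this signal.

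Set in order from the lowest difference to the highest, the genes were *Irf5*, *Irf1*, *Irf4*, *Irf8*, *Irf2*, *Irf7*, *Irf3* and *Irf9*. *Irf5* was separated from *Irf1* by 0.47 ± 0.13 and *Irf9* from *Irf3* by 0.34 ± 0.13, each more than 2 times the expected SD of the gap. No other pair of neighbours in this order differed beyond that limit. A gap between members does not depend on any scaling that takes 1 factor per array. Between *Irf5* and *Irf9* the gap was 1.48 ± 0.13, so the ratio of *Irf9* to *Irf5* signal was 2.79-fold higher with IR-61 than with vehicle. This gap lay between 1.34 and 1.48 under the settings that were run. Between *Irf1* and *Irf9* the gap was 1.005 ± 0.13, a 2.01-fold change of their ratio.

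**Figure D2:**
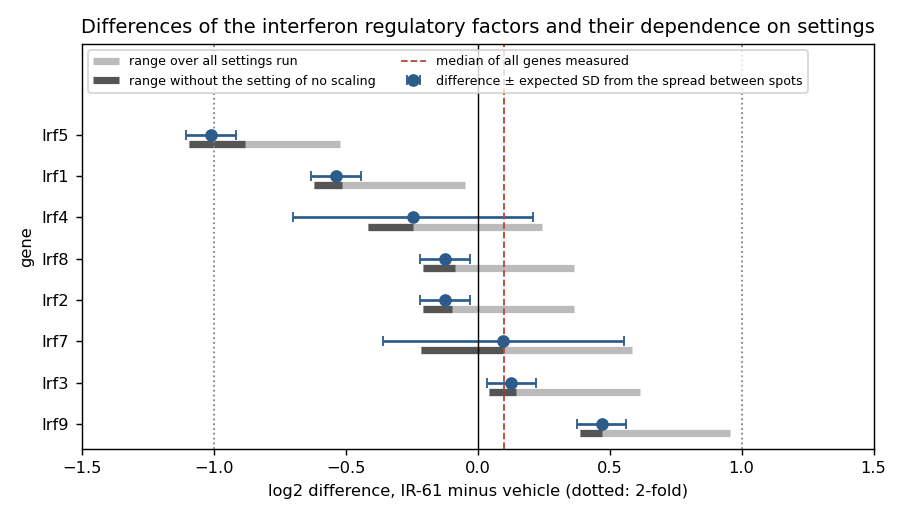
Log2 difference of each gene (IR-61 minus vehicle, blue points) with its expected SD from replicate spots, above grey bars that span the values under all settings run and dark bars that leave out the setting without scaling. *Irf5* and *Irf1* lie below 0 and *Irf9* and *Irf3* above 0 over the whole of their bars, whereas the bars of *Irf2*, *Irf4*, *Irf7* and *Irf8* cross 0.

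**Figure D3:**
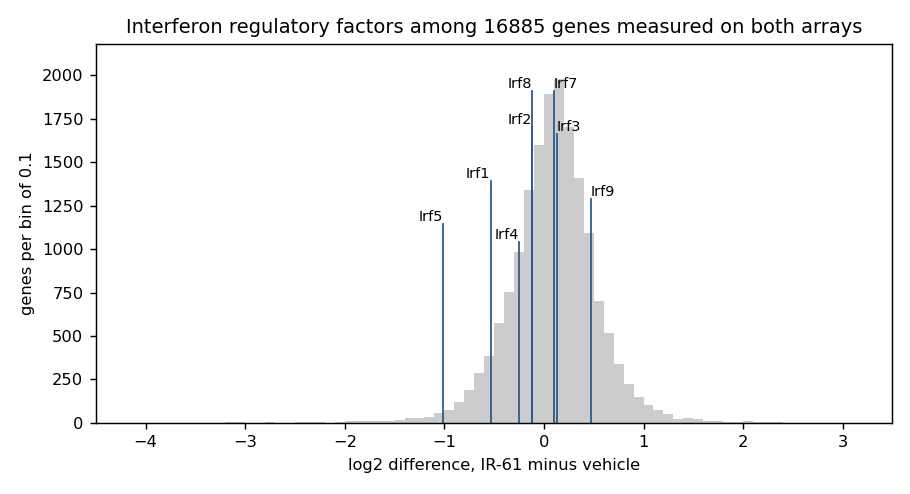
Histogram of the log2 difference of the 16885 genes measured on both arrays, in bins of 0.1, with a blue line at each member (line height has no meaning). *Irf5* at −1.01 lies in the lower tail, and the other members lie within the bulk, between −0.54 and 0.47.

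The table of log2 values that the authors deposited gave the same signed order for the bright probes. In that table *Irf5* was 13.24 with vehicle and 12.16 with IR-61, a difference of −1.08. *Irf1* was 15.50 and 14.96, a difference of −0.53, and *Irf9* was 12.59 and 12.99, a difference of 0.40. *Irf7* came out at −0.086 there, in place of 0.10, a move within its expected SD.

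The promoters of the family were searched for elements through which interferon and NF-κB are known to act on IRF genes. RefSeq gives 11 windows for the 8 genes (build GRCm38.p6, 250 bases before to 50 after a transcription start). The motifs were the interferon-stimulated response element (ISRE, a pair of GAAA runs 2 bases apart), the γ-activated site (GAS, TTCNNNGAA) and the κB motif, each read on both strands. A match is a description of letters and not a bound site. The ISRE was found in 1 of the 11 windows and in 3.44% of the 32851 windows of all genes. GAS was found in 3 of the 11 and in 8.30% of all windows, and the κB motif in 2 of the 11 and in 8.46% of all windows. No match overlapped a match of another motif. The windows with a match, those of *Irf1*, *Irf2* and the first start of *Irf8*, are shown because they hold all of these elements, and the first window of *Irf9* is shown beside them because *Irf9* had the highest difference and its window held none. The 250 bases before the start are printed 5′ to 3′, with matches in capitals.
Irf1, chr11:53769764-53770013, plus strand: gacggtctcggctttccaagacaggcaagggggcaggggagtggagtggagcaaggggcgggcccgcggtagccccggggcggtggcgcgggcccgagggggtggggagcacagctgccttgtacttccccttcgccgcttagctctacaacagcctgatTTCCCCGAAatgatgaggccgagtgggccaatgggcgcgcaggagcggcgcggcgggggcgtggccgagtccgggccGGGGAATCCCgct
Irf2, chr8:46739495-46739744, plus strand: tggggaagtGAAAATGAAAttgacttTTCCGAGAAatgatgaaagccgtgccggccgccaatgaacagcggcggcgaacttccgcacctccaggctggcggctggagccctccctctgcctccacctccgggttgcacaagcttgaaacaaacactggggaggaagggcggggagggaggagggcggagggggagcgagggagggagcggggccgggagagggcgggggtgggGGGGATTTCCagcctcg
Irf8, chr8:120736108-120736357, plus strand: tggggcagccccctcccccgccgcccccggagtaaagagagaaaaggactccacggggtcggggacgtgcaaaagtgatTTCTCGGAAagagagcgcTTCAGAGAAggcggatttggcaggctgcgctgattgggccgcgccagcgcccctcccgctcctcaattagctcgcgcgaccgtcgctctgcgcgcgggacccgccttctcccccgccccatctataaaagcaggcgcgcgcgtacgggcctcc
Irf9, chr14:55603735-55603984, plus strand: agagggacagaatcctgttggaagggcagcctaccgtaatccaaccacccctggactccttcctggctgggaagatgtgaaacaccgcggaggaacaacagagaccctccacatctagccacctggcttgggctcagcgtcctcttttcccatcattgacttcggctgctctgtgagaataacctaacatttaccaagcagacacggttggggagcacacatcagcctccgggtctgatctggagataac

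In the *Irf1* window a GAS lay at −90 to −82 and a κB motif at −13 to −4, counted from the transcription start as 0. The *Irf2* window held an ISRE at −241 to −232, a GAS at −224 to −216 and a κB motif at −17 to −8. The first *Irf8* window held a GAS at −171 to −163 and another at −153 to −145. The gene that was lower by 2-fold, *Irf5*, had no match in its window, which starts inside the annotated gene and is not shown. Among the genes with a GAS in the window, *Irf1* was lower by 0.54 on the log2 scale, whereas *Irf2* and *Irf8* were each at −0.12.

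**Figure D4:**
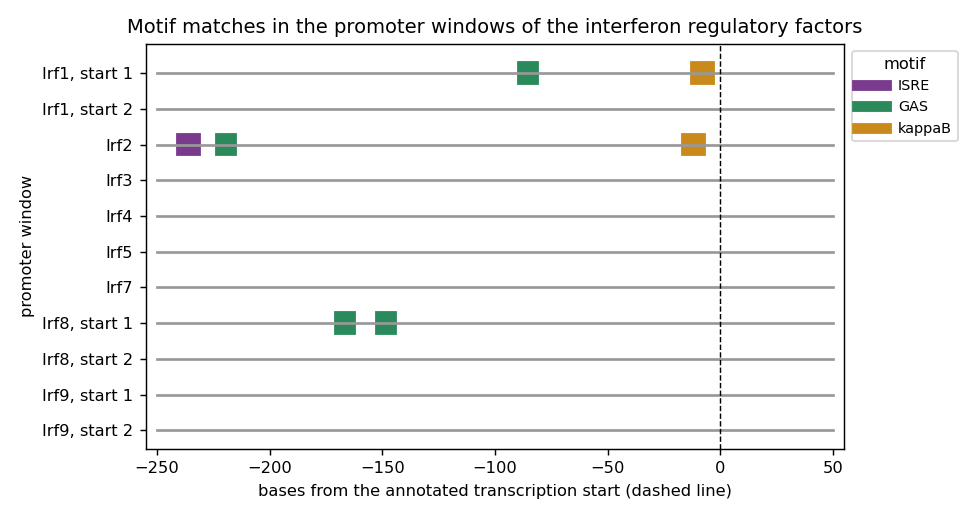
Positions of motif matches (colored boxes) in the 11 promoter windows of the 8 genes, in bases from the annotated transcription start (dashed line), 250 before to 50 after it. The matches lie in the windows of *Irf1*, *Irf2* and *Irf8*, and the windows of *Irf3*, *Irf4*, *Irf5*, *Irf7* and *Irf9* hold none.

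Beyond the family, 98 other genes of IRF signaling, in 8 lists, were read on the same arrays. Of these 97 had a named probe and 92 were measured on both arrays. Their median difference was −0.072, and 57 were below 0 and 35 above, where 38.8% of all measured genes were below 0. Of the 92 genes 8, or 8.70%, were lower by 2-fold or more against 1.39% of all measured genes, and 0 were higher by 2-fold or more against 2.0%. These 8 genes were *Tnf*, *Cd40*, *Ikbke*, *Cxcl10*, *Gbp2*, *Tap1*, *Spib* and *Retnla*. The lists were written with earlier results of these arrays known, and *Tnf* and *Ifnar1* of the measured genes were displayed by the study itself, so the share is a description only. Without scaling between the arrays 1 gene was lower by 2-fold or more and 7 were higher, where 0.426% of all measured genes were lower and 12.8% higher in that setting. With normexp background correction 4 were lower, where 0.883% of all measured genes were.

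Upstream of the family, the sensors, adaptors and kinases that lead to IRF3, IRF5 and IRF7 had a median of −0.012 over 24 genes. Of these 12 were below 0 and 12 above, where 38.8% of all measured genes were below 0. *Ikbke*, an IκB kinase-related kinase that phosphorylates IRF3 and IRF7, was the lowest, with intensities of 1510 and 1004 and a difference of −1.08 ± 0.16. *Cgas*, the cytosolic DNA sensor, was the highest, with intensities of 628 and 1454 and a difference of 0.72 ± 0.19. The other *Cgas* probes, dim at 71.5 and 60.6 with vehicle, gave −0.040 and −0.060. *Ticam1*, the adaptor of TLR3 and TLR4, was among the genes nearest to *Irf9*, at 0.42 ± 0.23.

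The interferon receptors, JAK kinases and STATs had a median of −0.0050 over 9 genes. None was past the 2-fold limit by its brightest probe under the scaling used, where 1.39% of all measured genes were lower and 2.0% higher. The median of the list was that of *Ifnar1*, a subunit of the type I interferon receptor, whose probes differed. Its brightest probe, with intensities of 3481 and 4865, gave −0.0050 ± 0.094, a second with 1480 and 1050 gave −0.98 ± 0.094, and the dimmest with 183 and 106 gave −1.28 ± 0.23, past the 2-fold limit. *Tyk2*, a kinase of the type I interferon receptor, was the lowest of them, with 388 on both arrays before scaling and a difference of −0.49 ± 0.23.

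Among the transcription factors and co-activators that work with IRFs, the median was −0.29 over 11 genes. Of these 9 were below 0 and 2 above, where 38.8% of all measured genes were below 0. *Spib*, an ETS factor related to PU.1, was the lowest, with intensities of 335 and 232 and a difference of −1.02 ± 0.23, close to that of *Irf5*. *Batf2*, a partner of IRF1, was the highest at 0.40 ± 0.23. The proteins that bind or limit IRFs had a median of −0.22 over 7 genes. Of these *Irf2bpl*, of the IRF2-binding protein family, was lowest at −0.65 ± 0.094, with its second probe at −0.95, and *Socs1*, an inhibitor of JAK signaling, was highest at 0.49 ± 0.23. Both medians were above 0 without scaling, at 0.20 and 0.27.

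Downstream, the interferon-stimulated targets were spread on both sides of 0. Their median was −0.0655 over 15 genes, 8 below 0 and 7 above, where 38.8% of all measured genes were below 0. None was past the 2-fold limit by its brightest probe, where 1.39% of all measured genes were lower and 2.0% higher. *Isg15*, a ubiquitin-like protein, was lowest at −0.79 ± 0.094, with 4267 for vehicle and 3465 for IR-61, and its second probe gave −1.30. *Ifi44* was highest at 0.72 ± 0.46, from a dim probe with intensities of 24.8 and 57.4. *Ifit3*, at 0.46 ± 0.23, was the list gene nearest to *Irf9*.

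Of the 17 measured genes among the known targets of IRF1 and IRF8, 4 were lower by 2-fold or more, where 1.39% of all measured genes were. This list, too, was written with earlier results of these arrays known. *Cd40*, a co-stimulatory receptor, had intensities of 1783 and 1062, a difference of −1.24 ± 0.094. *Cxcl10*, a chemokine for activated T cells, had a difference of −1.08 ± 0.094, and *Gbp2*, an interferon-induced GTPase, of −1.06 ± 0.094. *Tap1*, the peptide transporter of antigen processing, was printed 10 times, and no spot of the IR-61 array reached the level of a vehicle spot. Its scaled log2 level was −2.58 ± 0.055 with vehicle and −3.62 ± 0.077 with IR-61 (SD between 10 spots), a difference of −1.04. *Il18bp*, a decoy for IL-18, was the highest of the list at 0.81 ± 0.19. Over the 17 measured genes of the list the median was −0.16. Of these 11 were below 0 and 6 above, where 38.8% of all measured genes were below 0. The median of the list was 0.32 without scaling.

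In the cytokine genes linked to IRF5, only 3 of 7 were measured on both arrays, and their median was −0.057. With no filter on dim probes, the median was −1.18. It then took in *Il12a*, *Il23a* and *Ifnb1*, which read 8.94, 11.9 and 6.04 with IR-61, under the background limit. *Tnf*, also printed 10 times, was the lowest, with a log2 difference of −3.24 and no overlap between its spots on the arrays, and *Il6* was the highest at 0.16 ± 0.23, with intensities of 148 and 233. *Il12a*, a subunit of IL-12, dropped under the background limit with IR-61 from a vehicle intensity of 21.1. Its bound after scaling was a 1.97-fold lower level, a log2 difference of −0.98 with an expected SD of 0.46. This bound includes the shift of 0.49 between the 75th percentiles of the arrays. *Il23a* and *Ifnb1*, displayed by the study, were also under the background limit with IR-61. Their vehicle intensities of 13.9 and 13.5 lay below the lowest signal well above background on the IR-61 array, 15.0. Their bounds of −0.38 and −0.34 therefore rested on the scaling and were smaller than the expected SD of 0.46, so a lower level was not shown. *Il12b* was not analysed here. In the genes of alternative activation linked to IRF4, the median was −0.35 over 6 genes and 0.14 without scaling. *Retnla*, a marker of this state, was the lowest, with intensities of 679 and 474 and a difference of −1.01 ± 0.23, the value nearest to that of *Irf5* among the pathway genes. *Ccl17* was the highest at 0.98 ± 0.46, from a vehicle intensity of 13.9, next to the lowest signal well above background of 12.8.

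**Figure D5:**
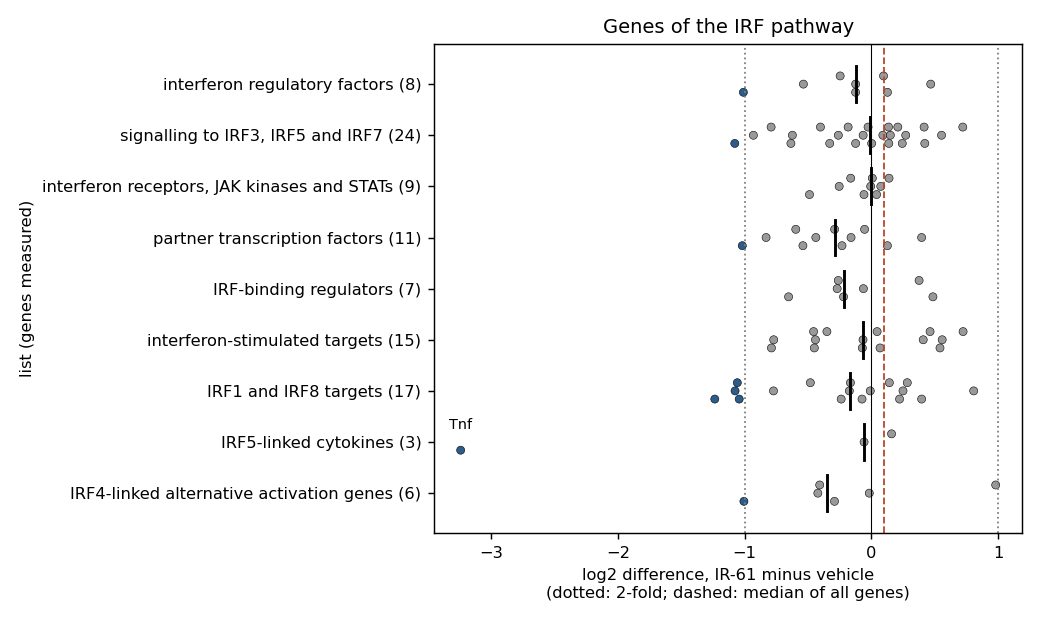
Log2 difference of each measured gene of the family and of the 8 pathway lists (points, with the number of genes in parentheses), with a black bar at each median, the dashed line at the median of all genes and dotted lines at 2-fold. Blue points are genes lower by 2-fold or more, of which *Tnf* at −3.24 is the farthest, and no gene lies past the dotted line on the right.

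The labelled cell type was checked against markers. Of 10 macrophage markers 9 had a named probe, and all 9 were well above background on both arrays, with vehicle intensities between 1322 and 120586. They did not move in 1 direction, with 5 below 0 and 4 above, where 38.8% of all measured genes were below 0. *Adgre1*, the classic macrophage surface marker, was higher by more than 2-fold at 1.03 ± 0.094, *Fcgr1* was at 0.99 ± 0.094 and *Itgam* at 0.65 ± 0.094, whereas *Cd14*, displayed by the study, was at −0.98 ± 0.094. Before scaling between the arrays, the summed intensity of the 9 markers was 322837 with vehicle and 522407 with IR-61. All sums given here are unscaled, and the 75th percentile of the IR-61 array was higher by 0.49 on the log2 scale. *Cd3g* of T cells, *Xcr1* of dendritic cells and *Epcam* and *Cdh1* of epithelium did not clear the background limit on either of the arrays. The other markers of these lists were measured on both arrays. With vehicle, *Cd3e*, *Cd4* and *Cd8a* of T cells read 684, 1354 and 49.6. *Zbtb46*, *Flt3* and *Siglech* of dendritic cells read 150, 208 and 49725, and *Krt18* of epithelium read 218. All 5 B cell markers were above background at vehicle intensities of 36.9 to 353, with a summed intensity of 906.5 with vehicle and 745.5 with IR-61. Of these *Ms4a1* and *Cd79b* were lower by more than 2-fold, at −1.46 ± 0.23 and −1.09 ± 0.23. The 3 fibroblast markers were also above background, with a summed intensity of 43036 and 82761. Summed intensities were 2090 and 3041 for the T cell list, 50087 and 62659 for the dendritic cell list, nearly all of it *Siglech*, and 236 and 240 for the epithelial list. After scaling, the median difference was −0.037 for the macrophage list, 0.077 for T cells and −0.095 for B cells. It was −0.17 for dendritic cells and 0.33 for fibroblasts, and *Krt18*, the 1 epithelial marker measured, was at −0.51. Of the fibroblast markers, *Col1a1* at 0.62 ± 0.094 was the highest. The part of these marker genes in the differences of the IRF genes was not tested.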

How the data were processed

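Total RNA of 2 RAW264.7 cultures, 1 with vehicle and 1 with IR-61, was labelled with Cy3 and hybridized to 1 array each. The authors deposited the spot intensity of the Agilent Feature Extraction software, after background subtraction and spatial detrending, and its spot flags. The file headers name version 11.0.1.1 and the submitters' processing notes 11.0.0.1. The authors also deposited log2 values per probe, whose method is not given in the sources used here and whose columns share their quartiles.

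Control spots and outlier spots (124 and 139) were left out, and log2 intensities were averaged per probe and reduced by the 75th percentile of the array. Saturated spots were absent. Probes well above background made up 77.6% with vehicle and 81.2% with IR-61. Precision is limited by the number of arrays. Probes were named by RefSeq accession, without version, through a gene table of GRCm38.p6, used for names because the array design gives another build, and 27234 of 39429 were named. A gene took its brightest probe. A probe not well above background on 1 array gave a bound, taken against the lowest signal well above background there (12.8 with vehicle, 15.0 with IR-61) or its own signal, whichever was higher. The SD between spots came from probes printed 10 times, and was 0.070 and 0.063 above a log2 intensity of 10, 0.178 and 0.144 between 6 and 10, and 0.347 and 0.296 under 6.

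No test was run. The members and lists were chosen with earlier results of these arrays known. Genes named are the 8 members, the largest rise and fall of each pathway list, list genes past 2-fold, and the 3 list genes nearest in difference to the member that fell or rose most. *Il12a*, *Il23a*, *Ifnb1*, *Ifnar1*, *Irak1*, *Ifih1* and *Xaf1* fall outside this rule and were chosen after their values were seen, as were the cell type markers given by value. An item that the rule would name is not reported here. The lists were signalling to IRF3, IRF5 and IRF7, interferon receptors with JAK kinases and STATs, partner transcription factors, IRF-binding regulators, interferon-stimulated targets, IRF1 and IRF8 targets, IRF5-linked cytokines and IRF4-linked genes. The steps were tested on simulated arrays. Alternatives were 5 other scalings, normexp with an offset of 50, the deposited log2 values, the mean over probes, outlier spots kept, no filter or a 4-fold filter on dim probes, and a 1.5-fold limit. Normexp was run in limma 3.58.1 (R 4.3.3), loess in statsmodels 0.14.6, plots in matplotlib 3.10.9, and all else in Python 3.11.15 (pandas 2.3.3, numpy 2.4.6).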

Additional observations from a re-analysis of the deposited data

How the results depend on the processing

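No paired analysis was possible because vehicle and IR-61 were read on a single array each. A single value was taken as moved where it changed by more than its expected SD from replicate spots, and a gene count beyond 1.5 times. Without scaling, the median over all measured genes was 0.59, against 0.10 with it, and the other values shifted too. The median of the IRF genes was then 0.36 in place of −0.12, *Irf2* and *Irf8* were each at 0.36, 0 IRF genes were lower by 2-fold or more, 1 pathway gene was lower and 7 were higher, while 12.8% of all measured genes were higher. The median of each of the 8 pathway lists was below 0 with scaling and above 0 in this setting. It was 0.20 for partner transcription factors, 0.27 for IRF-binding regulators, 0.32 for IRF1 and IRF8 targets and 0.14 for IRF4-linked genes. It was 0.48 for signalling to IRF3, IRF5 and IRF7 and 0.48 for interferon receptors with JAK kinases and STATs. For interferon-stimulated targets it was 0.42, and for IRF5-linked cytokines 0.43. With normexp background correction 0 IRF genes and 4 pathway genes were lower by 2-fold or more, where 0.883% of all measured genes were. At the 1.5-fold limit 18 of the 92 measured pathway genes were lower and 4 higher, where 5.67% of all measured genes were lower and 9.82% higher. Of all genes past the 2-fold limit 41.1% were lower in the setting used and 54.3% with scaling by the median, 3.23% without scaling and 32.3% with no filter on dim probes. With no filter on dim probes the median of the IRF5-linked cytokines was −1.18 in place of −0.057. The value of −1.18 takes in *Il12a*, *Il23a* and *Ifnb1*, whose IR-61 signals were under the background limit. The probes of *Irf4* and *Irf7* did not pass the 4-fold filter on dim probes, and *Irf7* ranged from −0.22 with normexp to 0.58 without scaling. *Irf1* ranged from −0.62 to −0.048 and *Irf5* from −1.09 to −0.52. Normexp was run on the median spot signal, and 4 spots of the IR-61 array with a local background above their signal took the median background of the array, a step chosen after the spots were seen.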

Other observations

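Several pathway genes had probes that differed from each other by more than the spread between spots, chosen here after their values were seen. *Irak1*, a kinase between MyD88 and IRF5 or IRF7, was read by 3 probes. The probe with the highest mean log2 signal, at 1495 with vehicle, gave a log2 difference of 0.0025 ± 0.094, whereas the probe at 1602 gave −0.74 ± 0.094 and that at 744 gave −0.60 ± 0.23. *Ifih1*, a sensor of viral RNA, was at 0.42 ± 0.094 by a probe of intensity 4398 and at −0.70 ± 0.35 by a probe of intensity 69.2. *Xaf1*, an interferon-induced gene, was at −0.44 ± 0.094 by the probe of intensity 1243 and at 0.75 ± 0.38 by that of intensity 44.1. Each of these genes was counted above by the probe with the highest mean signal. Which transcripts these probes bind was not tested.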
